A study of Mus musculus with 7 samples.

Results

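The genes described here are 6 orphan nuclear receptors of subfamily 2: Nr2f1 (COUP-TFI), Nr2f2 (COUP-TFII), Nr2f6 (EAR2), Nr2c1 (TR2), Nr2c2 (TR4) and Nr2e1 (TLX). They were taken by symbol from the 48321 genes of the count files, and all 6 had enough counts to be tested among 18387 genes. The libraries came from the VMHvl, the ventrolateral ventromedial hypothalamus (VMH), cut out by hand from ovariectomized female mice on a mixed background with 129/Sv ancestry. The line descends from mice with a floxed Esr1 allele, and the labels name no Cre driver and no age. Of these mice, 4 (EB 1 to EB 4) received 1 µg of estradiol benzoate (EB), an estradiol ester, and 3 (VEH 1 to VEH 3) received vehicle, all under the skin. Tissue was taken 4 hours later. Each library was made from 1 mouse, so the spread between replicates joins differences between animals, dissections and library preparations. Bulk tissue cannot tell fewer cells of a type from less RNA per cell.

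COUP-TF proteins have no established natural ligand. They bind direct repeats of AGGTCA as homodimers or with retinoid X receptors, and mostly repress transcription. In cell culture COUP-TFs can also occupy estrogen response elements and oppose the estrogen receptor there. In the brain Nr2f1 patterns the neocortex and guides neuronal migration, and its loss of function in humans causes an optic atrophy syndrome. Nr2f2 specifies veins and marks groups of inhibitory and hypothalamic neurons. TR2 and TR4 work as a pair in repressor complexes on direct repeats, and TLX keeps neural stem cells dividing.

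Totals ran from 21037303 to 33302293 counts per library. Of 20 VMH and VMHvl marker genes every one had counts in each library. Slc17a6, which loads glutamate into synaptic vesicles, averaged 633 ± 55.6 CPM in EB mice and 499.6 ± 61.3 CPM in VEH mice (SD, n = 4 and 3). Nr5a1, also on this list, was low, at 2.52 ± 1.11 CPM in EB mice and 2.03 ± 1.02 CPM in VEH mice. Of the 20, 12 were negative (median log2 −0.11), and their summed level was 2757 to 3109 CPM in EB mice and 2612 to 3337 CPM in VEH mice. EdgeR called 3 higher with EB (Pgr, Nptx2 and Cckar) and 1 lower (Oxtr), genes named here after their values were seen, with 10 at an unadjusted p under 0.05. DESeq2 called 6 and limma-voom 4. CPM (counts relative to library size) were scaled by TMM (trimmed mean of M values). VEH 1 and EB 4 stood highest of their groups in summed mural and fibroblast markers, at 793 CPM for VEH 1 and 479 CPM for EB 4.

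On GRCm38 (mm10), Nr2f1 lies at chr13:78188973-78199757 and Nr2f2 at chr7:70351944-70366735, both on the minus strand. Both overlap, at their 5′ ends, an antisense noncoding gene: A830082K12Rik shares 123 exonic bases with Nr2f1, and B130024G19Rik shares 643 with Nr2f2. Nr2f6 is at chr8:71374123-71381960 (minus), Nr2c1 at chr10:94148023-94197211 (plus), Nr2c2 at chr6:92091390-92174294 (plus) and Nr2e1 at chr10:42561963-42583632 (minus). Nr2f6 shares 1622 of its 2983 exonic bases with Ocel1 on the other strand, and Nr2c2 shares 4590 of 14935 with Mrps25. The use of strand in counting is not given in the sources used here, so counts of these overlapping pairs are uncertain.

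The 250 bases upstream of each RefSeq start were searched on both strands for 4 motifs. AGGTCA, the core element of Nr2 receptors, was in 14% of 32851 windows of this length in the mouse genome, and in 0 of the 7 windows of the members. Neither the direct repeat of AGGTCA with 1 base between the copies (0.0335% of all windows) nor the palindromic estrogen response element, GGTCA and TGACC with 3 bases between them (0.0639%), was found in these windows, and matches of the repeat also count as matches of AGGTCA. The GC box GGGCGG, held by 32.7% of all windows, occurred 7 times upstream of Nr2f6, 2 times upstream of Nr2c2 and 1 time in the first of 2 Nr2f1 windows. Nr2f2, Nr2c1 and Nr2e1 had none. Upstream bases of Nr2f2 and Nr2f6 are shown because these COUP-TF genes differ in base composition. Whether base composition bears on any change with EB was not tested. GC boxes are in capitals (CCGCCC is the same box on the other strand). The stretches are RefSeq sequence of GRCm38.p6 on the minus strand, chr7:70366747-70366996 for Nr2f2 and chr8:71381961-71382202 for Nr2f6, without bases of their own GENCODE exons. The stretch of Nr2f6 thus leaves out 8 bases of its window and holds 6 of the 7 boxes, 2 of which overlap.
Nr2f2: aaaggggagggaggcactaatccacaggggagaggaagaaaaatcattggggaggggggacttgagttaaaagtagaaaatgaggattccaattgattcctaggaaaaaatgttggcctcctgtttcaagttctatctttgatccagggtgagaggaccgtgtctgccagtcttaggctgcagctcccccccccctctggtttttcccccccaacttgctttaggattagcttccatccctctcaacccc
Nr2f6: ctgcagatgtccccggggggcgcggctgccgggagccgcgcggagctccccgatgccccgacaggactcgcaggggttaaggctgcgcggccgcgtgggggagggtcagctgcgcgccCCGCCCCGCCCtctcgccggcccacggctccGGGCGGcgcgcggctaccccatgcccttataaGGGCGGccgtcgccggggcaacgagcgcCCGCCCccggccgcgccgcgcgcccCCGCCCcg
GC content was 50% in the stretch from Nr2f2 and 81.8% in that from Nr2f6. The Nr2f2 window belongs to its most distal start, and the next exon block, where other GENCODE transcripts of Nr2f2 start, lies 6.14 kb further along the gene. Both Nr2f1 windows lie inside annotated GENCODE exons of Nr2f1 and are not printed.

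**Figure D1:**
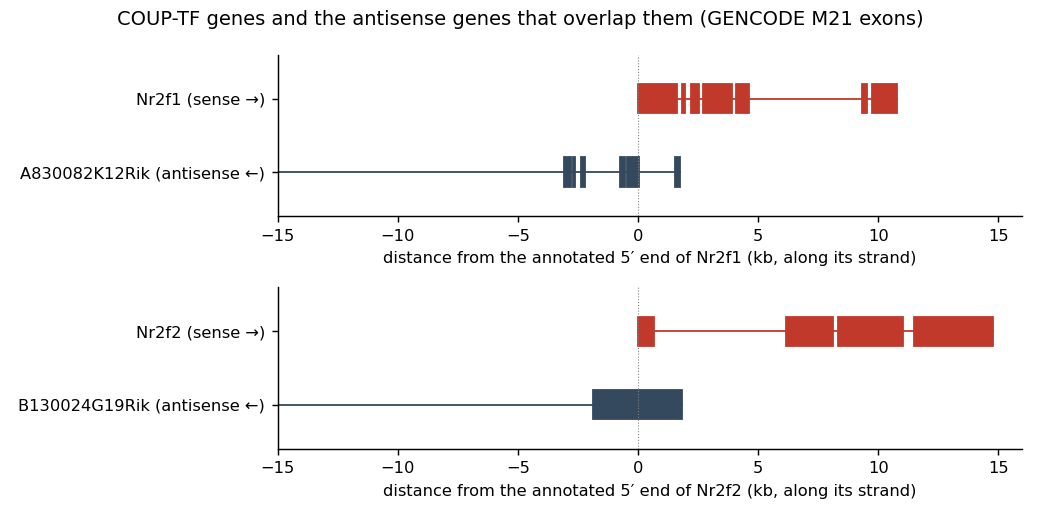
Exons (boxes) of Nr2f1 and Nr2f2 and of the antisense genes that overlap their 5′ ends, by distance in kb from the annotated 5′ end of each receptor gene, along its strand. Lines join the exons, and the antisense genes run on beyond the left edge. A830082K12Rik and Nr2f1 share 123 exonic bases, and B130024G19Rik and Nr2f2 share 643.

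The receptors were expressed at very different levels. Per kilobase of exon, Nr2f2 averaged 9.75 ± 0.83 CPM per kb in EB mice and 15.0 ± 1.04 in VEH mice, and Nr2c2 averaged 9.73 ± 0.619 in EB mice and 10.4 ± 0.452 in VEH mice. By this measure Nr2f2 was the highest member in all 3 VEH mice, while in EB mice Nr2f2 and Nr2c2 did not differ beyond their spread, and Nr2c2 was higher in EB 4. Nr2f1 followed at 3.08 ± 0.465 CPM per kb with EB and 5.40 ± 0.384 with vehicle. Nr2e1 came next at 1.98 ± 0.128 with EB and 2.68 ± 0.341 with vehicle, close to Nr2c1 at 1.80 ± 0.193 with EB and 2.04 ± 0.271 with vehicle. Nr2e1 and Nr2c1 overlapped in EB mice, where EB 1 had Nr2c1 higher, but not in VEH mice. Nr2f6 was lowest in all 7 mice, at 0.419 ± 0.103 CPM per kb with EB and 0.423 ± 0.00852 with vehicle. Among 40 tested nuclear receptor genes ranked by this level, Nr2f2 was number 11 in EB mice and number 8 in VEH mice, and Nr2f6 was number 34 in EB mice and number 35 in VEH mice. Exon length was the union over all GENCODE transcripts of a gene, which understates the level where the main transcript is short. In CPM not divided by length, Nr2c2 was above Nr2f2 in all 7 mice. Their order thus depends on the exon lengths used, 14935 bases for Nr2c2 and 8625 for Nr2f2.

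Nr2f1 and Nr2f2 had less transcript 4 hours after EB, at 0.570 and 0.650 of the vehicle mean, while the estimates for Nr2f6 and both TR genes lay nearer to 0. The family was chosen by the CPM difference between EB and VEH mice in these same libraries, so the members' values are given as a description, with errors and without p-values. By edgeR's quasi-likelihood test over all genes, Nr2f1 and Nr2f2 were called lower and the other 4 were not called, so 2 of 6 members were called. Over all 18387 tested genes 0.919% were called, 0.712% as higher and 0.207% as lower with EB. All 6 members had negative log2 changes, with a median of −0.31, while the median over all tested genes was −0.01 and 51.7% of them were negative.

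**Figure D2:**
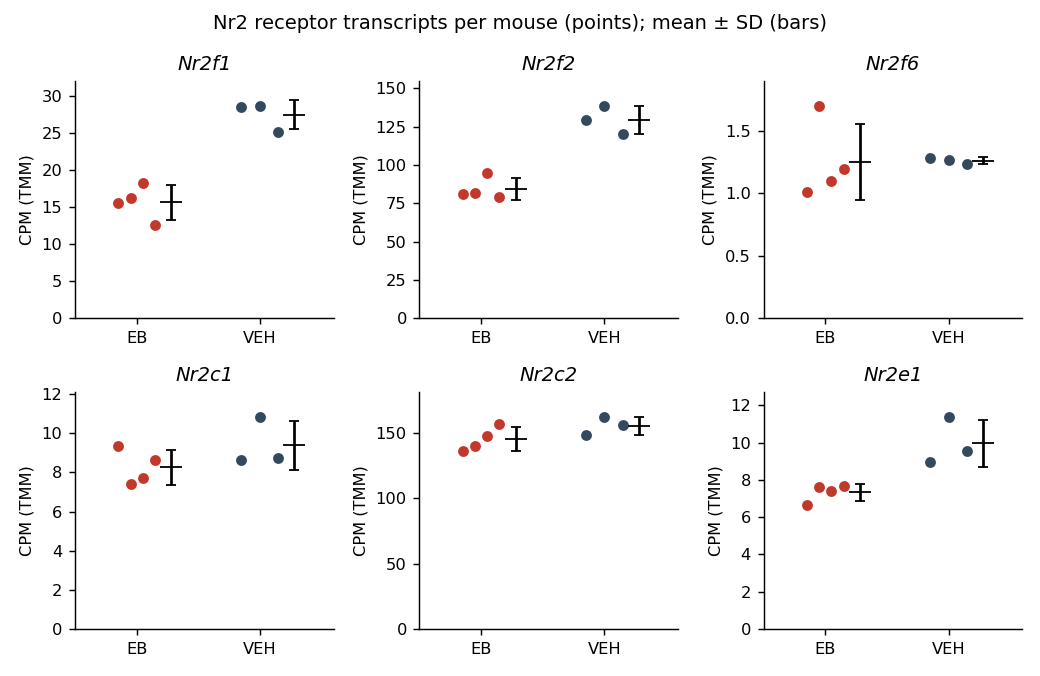
TMM-scaled CPM of the 6 Nr2 members in each mouse (points; EB in red, 4 mice; VEH in dark blue, 3 mice), with the group mean ± SD beside the points and axes from 0. EB and VEH mice do not overlap for Nr2f1, Nr2f2 and Nr2e1, and overlap for Nr2f6, Nr2c1 and Nr2c2.

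Nr2f1 was at 15.6, 16.2, 18.3 and 12.6 CPM in EB 1 to EB 4, against 28.6, 28.6 and 25.2 CPM in VEH 1 to VEH 3. Every EB mouse was below every VEH mouse, and EB 4 was the lowest of all. The means were 15.7 ± 2.37 CPM in EB mice and 27.5 ± 1.96 CPM in VEH mice (SD, n = 4 and 3), 0.570 of the vehicle level, or a log2 change of −0.81 ± 0.13 (SE). These values rest on 306 to 527 counts in EB libraries and 573 to 904 in VEH libraries. Its call held with any 1 library left out and ended without EB 4 and VEH 1 together, at a log2 change of −0.69.

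Nr2f2 was at 81.3, 81.4, 94.7 and 78.9 CPM in EB 1 to EB 4, against 129.6, 138.2 and 120.3 CPM in VEH 1 to VEH 3. The groups did not overlap, and EB 3 lay closest to the VEH mice. Its means were 84.1 ± 7.15 CPM in EB mice and 129 ± 8.95 CPM in VEH mice, 0.650 of the vehicle level, or a log2 change of −0.62 ± 0.08 (SE). Counts were 1918 to 2643 in EB libraries and 2731 to 4362 in VEH libraries, the deepest sampling among COUP-TF genes. Its call held under each alternative tried. The ratio of Nr2f1 to Nr2f2 counts was 0.191, 0.199, 0.194 and 0.160 in EB 1 to EB 4 and 0.221, 0.207 and 0.210 in VEH 1 to VEH 3, so each EB mouse was below each VEH mouse. Whether the changes of the 2 genes differ was not tested.

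Nr2f6, the third COUP-TF gene and a repressor best known from lymphocytes, was not called. It was at 1.01, 1.69, 1.09 and 1.19 CPM in EB 1 to EB 4, against 1.28, 1.27 and 1.23 CPM in VEH 1 to VEH 3. All VEH values fell within the EB range, which EB 2 widened. The log2 change was −0.01 ± 0.39 (SE), with a 95% interval of −0.84 to 0.82, on 26 to 55 counts per EB library and 28 to 40 per VEH library. At this depth a decrease of the size seen for Nr2f1 or Nr2f2 lies within the interval.

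The testicular receptors Nr2c1 and Nr2c2 had small negative estimates. Nr2c2 was at 136.1, 140.3, 147.6 and 157.2 CPM in EB 1 to EB 4, against 148.8, 162.3 and 155.9 CPM in VEH 1 to VEH 3. The groups overlapped, and EB 4 exceeded 2 of the 3 VEH mice. With 3503 to 4554 counts per EB library and 3541 to 5124 per VEH library, its log2 change of −0.10 ± 0.07 (SE) had a 95% interval of −0.25 to 0.05. That interval ends short of the estimates for Nr2f1 and Nr2f2, but the family was chosen by the difference between EB and VEH mice. Whether the change of Nr2c2 differs from theirs was not tested. Nr2c1 was at 9.34, 7.39, 7.71 and 8.64 CPM in EB 1 to EB 4, against 8.63, 10.8 and 8.72 CPM in VEH 1 to VEH 3. Again the groups overlapped, and VEH 2 stood above the other VEH mice. Its log2 change was −0.18 ± 0.16 (SE), with a 95% interval of −0.54 to 0.17, and was −0.07 without VEH 2.

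Nr2e1 lay between these patterns. It was at 6.63, 7.61, 7.41 and 7.65 CPM in EB 1 to EB 4, against 8.94, 11.4 and 9.56 CPM in VEH 1 to VEH 3. Every EB mouse was below every VEH mouse, as for Nr2f1 and Nr2f2. Thus 3 of 6 members had groups apart, all with EB lower, against 3.99% of all tested genes with EB lower and 9.1% in either direction. The log2 change was −0.44 ± 0.16 (SE), with a 95% interval of −0.79 to −0.10 unadjusted for the number of genes, and it was not called over all genes. Without VEH 2, the highest mouse, it was −0.34.

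**Figure D3:**
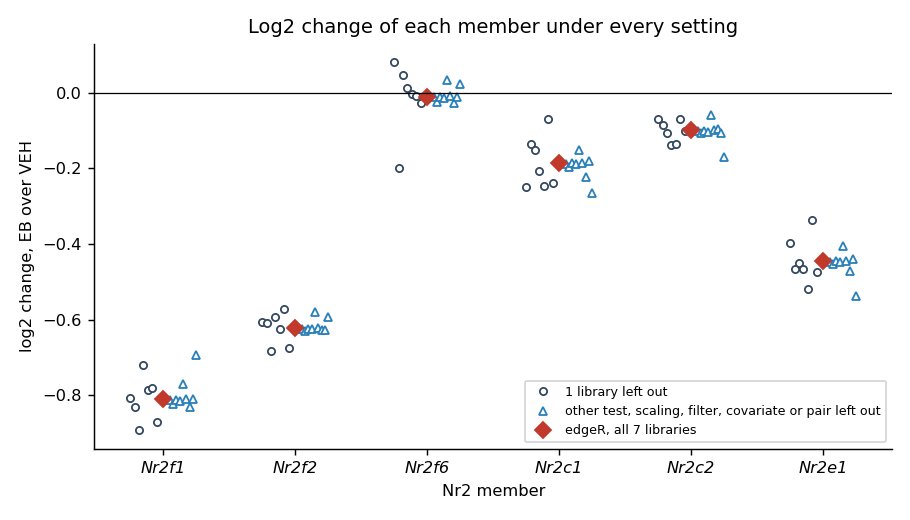
Log2 change (EB over VEH) of each Nr2 member under the edgeR fit with all 7 libraries (diamonds), with each library left out in turn (circles) and under the other tests, scalings, filter, covariates and with EB 4 and VEH 1 both left out (triangles). Nr2f1 stays between −0.89 and −0.69 and Nr2f2 between −0.68 and −0.57, while Nr2f6 lies on both sides of 0.

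EdgeR called neither antisense gene at the 2 COUP-TF loci, and EB and VEH mice overlapped for only 1 of them. A830082K12Rik, antisense to Nr2f1, was at 14.5, 16.1, 18.7 and 15.8 CPM in EB 1 to EB 4, against 20.5, 33.0 and 20.04 CPM in VEH 1 to VEH 3. The groups were apart, but VEH 2 was far above the other VEH mice, and its log2 change of −0.60 ± 0.17 (SE) was not called by edgeR (adjusted p = 0.209). DESeq2 called it (adjusted p = 0.0414) and limma-voom did not (adjusted p = 0.216). B130024G19Rik, antisense to Nr2f2, was at 6.76, 8.01, 6.24 and 8.73 CPM in EB 1 to EB 4, against 8.51, 5.42 and 7.27 CPM in VEH 1 to VEH 3. Its groups overlapped, with a log2 change of 0.08 ± 0.20 (SE; adjusted p = 0.967). Whether either antisense gene differs in its change from its COUP-TF gene, or from the other antisense gene, was not tested. Of 16 tested genes that overlap a member or lie within 50 kb of one, edgeR called 0 (1 at an unadjusted p under 0.05; DESeq2 called 1, A830082K12Rik; limma-voom 0).

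Nr2f2 is also strongly expressed in venous endothelium, so vascular markers are given beside it. The summed level of 15 endothelial markers ran from 115 to 146 CPM in EB mice and from 133 to 192 CPM in VEH mice. Of the 15, 12 had negative changes (median log2 −0.31), edgeR and limma-voom called 0, DESeq2 called 2 and 5 had an unadjusted p under 0.05. None was at 0 in any library. The 17 mural and fibroblast markers summed to 224.5 to 479 CPM in EB mice and to 212 to 793 CPM in VEH mice, and 15 were negative (median −0.22), with 0 calls from each of edgeR, DESeq2 and limma-voom and 0 genes under an unadjusted p of 0.05. With the mean of both marker lists as a covariate, the log2 change was −0.63 for Nr2f2 and −0.83 for Nr2f1. This covariate averages markers of endothelium, mural cells and fibroblasts and has no separate score for veins. It therefore cannot show the part of vascular cells in these values, which was not tested.

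For Nr2e1, which tanycytes and astrocytes express, 12 astrocyte markers summed to 5516 to 7050 CPM in EB mice and 6349 to 7120 CPM in VEH mice. Of these, 11 were negative (median −0.13), none was at 0, and 0 were called or had an unadjusted p under 0.05 by edgeR. Tanycyte and ependymal markers summed to 104 to 192.5 CPM in EB mice and 108 to 183 CPM in VEH mice over 11 tested genes, 8 of them negative (median −0.09). The ependymal markers Ccdc153 and Tmem212 were at 0 in at least 1 library, and edgeR called 0 (0 at an unadjusted p under 0.05). DESeq2 and limma-voom called 0 of either list. GABA neuron markers summed to 929 to 1049 CPM in EB mice and 809 to 1087 CPM in VEH mice, with 4 of 11 negative (median 0.06) and none at 0. EdgeR, DESeq2 and limma-voom called 0 of them (0 at an unadjusted p under 0.05). The part of glia and of GABA neurons in the members' values was not tested.

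Neighbouring brain regions and other glia were read the same way, since Nr2f1 is a cortical and Nr2f2 an amygdala and arcuate gene as well. Of 13 tested markers of amygdala, striatum and cortex 12 were negative (median −0.28), and they summed to 153 to 179 CPM in EB mice and 177 to 195 CPM in VEH mice. EdgeR and limma-voom called 0, DESeq2 called 1, 1 had an unadjusted p under 0.05, and the cortical marker Emx1 was at 0 in at least 1 library. The 11 microglia markers summed to 156 to 176 CPM in EB mice and 178 to 185.5 CPM in VEH mice, with 8 negative (median −0.15), none at 0, 0 called by edgeR and limma-voom, 1 by DESeq2 and 1 at an unadjusted p under 0.05. The 13 oligodendrocyte markers summed to 941 to 1110 CPM in EB mice and 1061 to 1142 CPM in VEH mice, with 9 negative (median −0.04). None was at 0, and edgeR, DESeq2 and limma-voom called 0 of them (0 at an unadjusted p under 0.05). The part of these cells in the members' values was not tested. The 13 tested arcuate markers summed to 608 to 692 CPM in EB mice and 660 to 803 CPM in VEH mice, with 5 negative (median 0.04). Kiss1 was at 0 in at least 1 library, and the 1 gene called by edgeR was Isl1, a homeobox factor named here after its values were seen (29.7 ± 3.79 CPM in EB mice, 67.3 ± 18.1 CPM in VEH mice). Of the arcuate markers 4 had an unadjusted p under 0.05, DESeq2 called 2 and limma-voom called 1. With the arcuate list as a covariate, the log2 change was −0.81 for Nr2f1 and −0.63 for Nr2f2. The list includes Isl1, itself called lower with EB, so this covariate can carry part of the difference between EB and VEH mice. It therefore cannot show the part of arcuate cells in these values, which was not tested.

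Set among the rest of the nuclear receptor family, Nr2f1 had the lowest estimate and Nr2f2 was also near the low end. The members were chosen by this same difference, so their place in the order is a description only. Of 43 other receptor genes 34 were tested, with a median log2 change of −0.16, 22 negative and 2 called. Pgr, the progesterone receptor and a standard estrogen target, rose to 207 ± 17.6 CPM in EB mice, against 82.2 ± 6.70 CPM in VEH mice (adjusted p = 3.4e-06). Nr3c1, the glucocorticoid receptor, fell to 141 ± 11.3 CPM in EB mice, against 181 ± 4.58 CPM in VEH mice (log2 −0.36 ± 0.07, adjusted p = 0.0318). Rorb, a receptor of retina and sensory cortex, was at 175 ± 21.7 CPM in EB mice and 216 ± 5.96 CPM in VEH mice and was not called by edgeR (log2 −0.31 ± 0.09, adjusted p = 0.186), but was called by DESeq2 (adjusted p = 0.0374) and with the arcuate marker covariate (adjusted p = 0.0331). Esr1, which binds the injected hormone, was at 192 ± 30.2 CPM in EB mice and 223 ± 81.6 CPM in VEH mice (adjusted p = 0.917). VEH 2 was far above the other VEH mice for Esr1, at 316.7 CPM against 183 CPM in VEH 1 and 168.7 CPM in VEH 3. Nr3c1 lost its call with library totals only, without EB 1, EB 3, EB 4, VEH 1 or VEH 3, and without EB 4 and VEH 1 together.

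**Figure D4:**
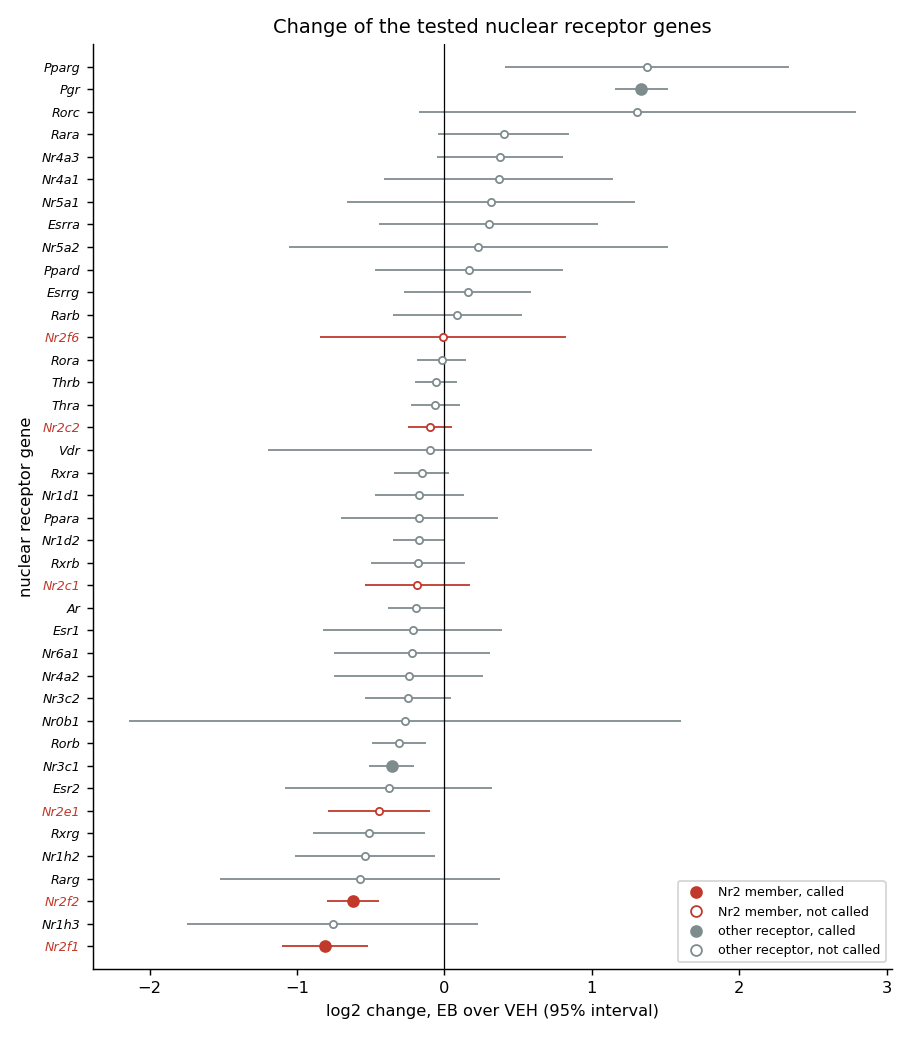
Log2 change (EB over VEH, 95% interval unadjusted for the number of genes) of the 40 tested nuclear receptor genes, sorted from high to low, with the 6 Nr2 members in red. Filled points were called over all genes: Pgr as higher, and Nr3c1, Nr2f2 and Nr2f1 as lower, with Nr2f1 at the bottom at −0.81.

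Within subfamily 2, the retinoid X receptors that pair with COUP-TFs had negative estimates that were not called. Rxra was at 33.3 ± 1.21 CPM in EB mice and 37.0 ± 0.395 CPM in VEH mice (log2 −0.15 ± 0.09, adjusted p = 0.699), and Rxrb had a log2 change of −0.18 ± 0.15 (adjusted p = 0.84). Rxrg was at 22.2, 23.1, 18.4 and 16.9 CPM in EB 1 to EB 4, against 23.9, 38.4 and 23.7 CPM in VEH 1 to VEH 3 (log2 −0.51 ± 0.18, adjusted p = 0.343). Its groups were apart, with VEH 2 well above the rest, and it was called with the vascular marker covariate (adjusted p = 0.0395). Nr2e3, the photoreceptor receptor closest to Nr2e1, had 4 counts in EB 3 and 0 in the other libraries. Hnf4a had 10 counts in VEH 2 and 0 elsewhere, and Hnf4g had 0 to 6 counts in EB libraries and 0 to 14 in VEH libraries, so these 3 were too low to test.

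Cofactors that bind Nr2 receptors gave 1 call among 27 tested genes, with 14 negative and a median log2 change of −0.01, against 0.919% called over all genes. Of the 27, 5 had an unadjusted p under 0.05 by edgeR, and all but the called gene were lower with EB. The called gene was Nrip1, a ligand-dependent corepressor that binds TR2 and many other receptors, which rose to 91.2 ± 6.14 CPM in EB mice, against 52.1 ± 2.42 CPM in VEH mice (log2 0.81 ± 0.08, adjusted p = 0.000239). Bcl11a, a zinc-finger protein first described as a COUP-TF interacting protein (CTIP1), was at 67.3, 52.2, 74.2 and 55.5 CPM in EB 1 to EB 4, against 80.3, 128.5 and 81.1 CPM in VEH 1 to VEH 3. Its groups were apart and VEH 2 was again high, and it was not called (log2 −0.64 ± 0.18, adjusted p = 0.258) except with the vascular marker covariate (adjusted p = 0.0428). Ncoa2, a p160 coactivator, was at 182 ± 11.0 CPM in EB mice and 211 ± 7.23 CPM in VEH mice (log2 −0.22 ± 0.07, adjusted p = 0.238).

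Genes described elsewhere as regulated by Nr2 receptors gave 0 calls among 21 tested by edgeR, DESeq2 or limma-voom (3 at an unadjusted p under 0.05), with 9 negative and a median log2 change of 0.06. These 3 were Tek, the angiopoietin receptor of endothelium (log2 −0.43 ± 0.17, adjusted p = 0.451), Star, which carries cholesterol into mitochondria (0.41 ± 0.17, adjusted p = 0.485), and Crabp1, a retinoic acid binding protein under TR2 control (−1.71 ± 0.70, adjusted p = 0.491). Crabp1 averaged 0.182 ± 0.121 CPM in EB mice and 0.603 ± 0.0285 CPM in VEH mice, so its estimate rests on few counts.

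The genes whose profile over the 7 libraries was most like that of Nr2f1 were Tmem74, Slitrk4, St8sia6, St8sia4 and Pcdh20. Likeness was the root-mean-square difference of log2 CPM, each gene centred on its own mean, and was 0.10 for Tmem74 and 0.13 for Pcdh20, against a median of 0.46 over 10393 genes. For Nr2f2 the nearest were Pcdh20 (0.061), Tox3, Rapgef5, St8sia6 and Nhs (0.096), against a median of 0.35. Tmem74 is a lysosomal membrane protein, Slitrk4 and Pcdh20 are adhesion proteins of neurons, and St8sia4 and St8sia6 are sialyltransferases. Tox3 is a nuclear HMG-box protein, Rapgef5 activates Rap GTPases and Nhs shapes the actin skeleton. Slitrk4 averaged 146 ± 16.4 CPM in EB mice and 242 ± 28.7 CPM in VEH mice, and St8sia4 averaged 52.7 ± 4.97 CPM in EB mice and 89.7 ± 5.95 CPM in VEH mice. Nr2f2 itself ranked number 7 in likeness to Nr2f1, and Nr2f1 ranked number 25 in likeness to Nr2f2, with a difference of 0.14. All 8 genes were called lower, which follows from their choice by likeness to genes that were lower.

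**Figure D5:**
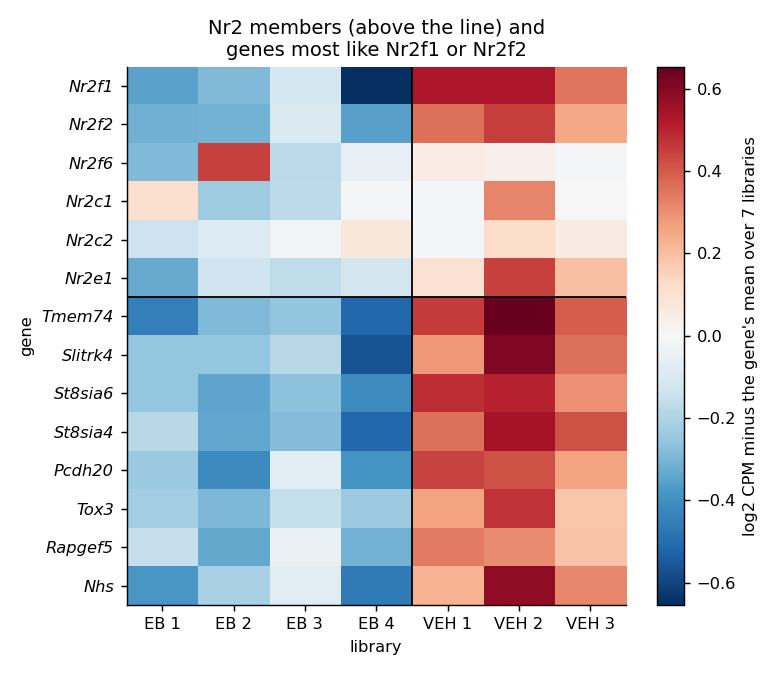
Log2 CPM of the 6 Nr2 members (above the line) and of the 8 genes most like Nr2f1 or Nr2f2 (below it) in EB 1 to EB 4 and VEH 1 to VEH 3, each row minus its own mean over the 7 libraries. Nr2f1 and Nr2f2 are below their mean in all EB libraries and above it in all VEH libraries, with EB 4 lowest for Nr2f1.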

How the data were processed

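RNA from the VMHvl of 7 mice (4 EB, 3 vehicle) was sequenced from 15 ng of RNA per library, per the labels' protocols. Raw counts for each gene symbol were deposited by the authors, 1 file per mouse, for 48321 genes. HISAT2, HTSeq, DESeq2 and the build mm10 are named in the submitters' processing notes. Versions, the annotation, strand use and the handling of multiply mapped reads were not given in the sources used here.

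Genes were kept by filterByExpr (minimum count 10), scaled by TMM and fitted in edgeR 4.0.16 (R 4.3.3; robust glmQLFit, then glmQLFTest) over all 18387 genes, with no covariate. Calls used a Benjamini-Hochberg adjusted p under 0.05, and each adjusted p is edgeR's unless another tool is named. SE is the absolute log2 change over the square root of F. The biological coefficient of variation was 22.3%. Alternatives used DESeq2 1.42.0, limma-voom (limma 3.58.1), 3 other scalings, no count filter, an adjusted p under 0.1, marker covariates and libraries left out. The tests were run first on simulated counts with known changes. Replicate pairs differed by a chi-square per degree of freedom of 18.6 to 185, above sampling noise, so each mouse counted once. VEH 1 differed from VEH 2 at 185 and from VEH 3 at 174, against 21.4 between VEH 2 and VEH 3. Among EB mice the highest value was 114, for EB 1 and EB 4. Counts limit precision for Nr2f6 most.

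Named genes were the members, up to 8 called or the 3 smallest p in each list, subfamily 2, genes within 50 kb, Esr1 and the 5 genes (mean CPM at least 5) nearest in profile to Nr2f1 and to Nr2f2. Members and lists were chosen with earlier results of these data known. Positions and exon lengths are from GENCODE M21 (GRCm38), upstream sequence from RefSeq GRCm38.p6, matched by symbol for 6 of 6 members. Figures were drawn with matplotlib 3.10.9.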

Additional observations from a re-analysis of the deposited data

Results flagged for a closer look

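In 4 of 43 named genes, 1 EB mouse stood apart from the other 3 by more than Dixon's 95% critical value for its gap over the group's range, which chance does in about 5% of groups of this size. Nr2f2 was at 94.7 CPM in EB 3 and between 78.9 and 81.4 CPM in the other EB mice. Without EB 3 its log2 change was −0.68. Among genes near a member, Fam172a was at 42.0 CPM in EB 2 and between 51.2 and 51.8 CPM in the others, Ndufa12 at 16.6 CPM in EB 3 and between 17.2 and 17.4 CPM in the others, and Fgd5, an endothelial exchange factor, at 7.62 CPM in EB 3 and between 5.10 and 5.51 CPM in the others. Groups of 3 VEH mice were not examined in this way.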

How the results depend on the processing

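No paired analysis was possible because the titles give each mouse a number of its own, and the numbers used here (EB 1 to EB 4, VEH 1 to VEH 3) only name mice within a group. The count of called genes was 169 with edgeR and 359 with DESeq2, and ran from 94 to 159 with each library left out in turn, lowest without VEH 3 and 103 without EB 1. The 2 called members stayed 2 under the other tests, scalings, filter, threshold and covariates and with each library left out (2 to 2). Without EB 4 and VEH 1 together, an alternative added after the data were seen, 1 member (Nr2f2) and 1 other receptor (Pgr) were called, with fewer mice in the fit. Other receptors called were 1 with library totals only and 1 to 2 with each library left out. Called cofactors were 3 with the vascular marker covariate (Nrip1, Rxrg and Bcl11a) and 1 to 1 with each library left out, and called target genes were 0 to 0. The cause of these shifts was not tested. Over 17 settings Nr2f1, Nr2f2, Nr2c1, Nr2c2 and Nr2e1 kept a negative log2 change, while Nr2f6 ran from −0.20 (without EB 2) to 0.08. With 26 to 55 counts per library, Nr2f6 is limited by depth.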
